A study of Mus musculus with 8 samples.

Results

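The regions described are 5hmC peaks of embryonic stem cells (ESCs) that had no counterpart in the peak list of cells transfected with a short hairpin against Suz12. They were chosen as the nuclear peaks of ESCs transfected with a hairpin against GFP (shGFP), the control, that had a score of at least 100, overlapped by at least 1 bp a peak of untransfected ESCs, and overlapped no peak of the cells with the hairpin against Suz12 (shSuz12). Of 132996 shGFP peaks, 54953 had that score and 50462 of these also had an ESC peak. From the shSuz12 list 13938 of the 50462 were absent, or 27.6% (exact 95% interval 27.2 to 28.0%), and these are called absent peaks. That number rests on the limits. It was 22997 (45.6%) where only shSuz12 peaks at or above the lowest shGFP score were counted, and 9033 (17.9%) where peaks with a shSuz12 peak within 1 kb were left out. The other 36524, which overlapped a shSuz12 peak, are called kept peaks. The 6 lists of the series hold 948510 nuclear peaks in all.

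5hmC is an oxidized form of 5-methylcytosine made by the Tet enzymes, and in ESCs it lies along gene bodies, at enhancers and at promoters of low or intermediate CpG content. Suz12 is a subunit of Polycomb repressive complex 2 (PRC2), which methylates lysine 27 of histone H3 at promoters of developmental genes. In GLIB-Seq, 5hmC is glucosylated, oxidized and biotinylated, and the fragments that carry it are precipitated and sequenced.

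The ESC, shGFP and shSuz12 libraries came from the E14 mouse line, and the libraries of mouse embryonic fibroblasts (MEFs, labelled embryonic day 11) and of brain and liver at 8 weeks from C57BL/6 mice. The methods give a later day for the MEFs than the label does. For silencing, the methods name 2 vectors against Suz12 and 3 days of selection with 1 µg/ml puromycin, and do not say which vector the sequenced cells carried. Each condition has 1 library, so there is no spread between replicates, no test between conditions is given, and hairpin and library cannot be told apart. The intervals are exact (Clopper-Pearson) and cover counting error only, over peaks that are neighbours on the same chromosomes. The level of Suz12 in the transfected cells was not analysed here.

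The score of a peak is the value of MACS, the peak caller, taken as -10 log10 of the p-value. This value depends on sequencing depth, which the lists do not give. The shSuz12 list was slightly longer than the control list, with 138705 against 132996 peaks, but its lowest score was 30.34 against 50.02, its peaks covered 83.5 against 121 Mb, and 11434 of its peaks against 54953 reached a score of 100.

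To show what such regions look like, 6 absent peaks are given by the 300 bp of mm9 at their midpoint, with each CpG, the site where most methylation and hydroxymethylation is found, in capitals. The first 3 are those of highest score, the next pair those of highest score over a TSS, and the last the highest not yet shown with a peak in MEFs, brain and liver. Windows that held a UTR were passed over, 2, 1 and 1 of them, respectively.
peak near Polg, chr7:86659988-86660287, plus strand: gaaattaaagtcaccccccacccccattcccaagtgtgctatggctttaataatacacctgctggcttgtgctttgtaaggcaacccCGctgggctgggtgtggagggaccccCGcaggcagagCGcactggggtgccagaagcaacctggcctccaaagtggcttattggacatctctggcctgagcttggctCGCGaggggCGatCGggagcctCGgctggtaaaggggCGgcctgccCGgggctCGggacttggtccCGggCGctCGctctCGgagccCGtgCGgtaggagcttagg
Snx30 peak, chr4:59830839-59831138, plus strand: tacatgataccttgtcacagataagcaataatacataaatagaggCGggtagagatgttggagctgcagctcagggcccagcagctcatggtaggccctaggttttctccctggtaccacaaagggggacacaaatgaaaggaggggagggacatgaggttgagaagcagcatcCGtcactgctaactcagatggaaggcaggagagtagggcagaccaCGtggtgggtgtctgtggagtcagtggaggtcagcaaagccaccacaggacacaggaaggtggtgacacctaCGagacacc
Ptprn2 peak, chr12:118394014-118394313, plus strand: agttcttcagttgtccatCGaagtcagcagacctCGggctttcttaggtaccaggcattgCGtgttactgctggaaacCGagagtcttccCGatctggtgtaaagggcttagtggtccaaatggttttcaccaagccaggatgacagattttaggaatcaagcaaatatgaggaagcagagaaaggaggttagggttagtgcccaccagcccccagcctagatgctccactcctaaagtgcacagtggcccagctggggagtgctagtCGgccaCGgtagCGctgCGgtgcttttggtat
Itpripl2 peak, chr7:125633771-125634070, plus strand: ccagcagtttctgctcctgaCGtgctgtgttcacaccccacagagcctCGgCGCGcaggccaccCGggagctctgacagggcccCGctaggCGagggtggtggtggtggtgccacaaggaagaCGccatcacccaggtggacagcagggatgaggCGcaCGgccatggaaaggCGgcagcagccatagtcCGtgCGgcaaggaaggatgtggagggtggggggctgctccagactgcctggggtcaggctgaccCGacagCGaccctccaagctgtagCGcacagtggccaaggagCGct
peak near Gm749, chr17:28685657-28685956, plus strand: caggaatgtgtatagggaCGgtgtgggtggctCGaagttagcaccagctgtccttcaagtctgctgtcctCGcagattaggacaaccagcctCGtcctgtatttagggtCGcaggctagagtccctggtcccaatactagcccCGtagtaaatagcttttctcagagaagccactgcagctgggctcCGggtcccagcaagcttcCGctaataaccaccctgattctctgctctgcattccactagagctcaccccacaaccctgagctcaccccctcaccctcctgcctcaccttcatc
peak near Adm, chr7:117769359-117769658, plus strand: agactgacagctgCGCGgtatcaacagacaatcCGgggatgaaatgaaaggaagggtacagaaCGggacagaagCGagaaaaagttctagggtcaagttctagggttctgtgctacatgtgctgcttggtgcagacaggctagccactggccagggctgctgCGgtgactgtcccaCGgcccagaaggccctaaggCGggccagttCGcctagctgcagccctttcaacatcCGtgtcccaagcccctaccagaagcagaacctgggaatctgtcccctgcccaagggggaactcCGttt
These windows held 17, 4, 9, 17, 8 and 11 CpGs, in the order shown, and their GC content was 63.3, 53.3, 52.3, 66.7, 55.7 and 57.3%. The window in the intron of Snx30, which encodes a sorting nexin, therefore held the fewest CpGs of the 6, although its peak was the widest of all absent peaks, at 4510 bp. Over all absent peaks, the median GC content was 49.5%, below that of each of the 6 windows, which were picked by score. The median number of CpGs was 18 per whole peak, which does not compare with a count in 300 bp. The median CpG density was 1.81 per 100 bp.

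The absent peaks were mostly of low score. Their scores ran from 100 to 772 with a median of 134, against 171 for kept peaks, and their median width was 980 bp against 1173 bp. Of the shGFP peaks with a score of 100 to 120, 41.9% were absent (41.0 to 42.8%). That share was 34.9% at 120 to 150, 26.9% at 150 to 200, 17.3% at 200 to 300 and 5.74% at 300 or more (5.18 to 6.33%). As the rule used the score and the shSuz12 list, these values are a description. The 3 members with scores nearest to the limit had 100, 100 and 100.03, and the 3 otherwise alike peaks just below it all had 99.97. Between 100 and 110 there were 2729 members, and 3331 otherwise alike peaks had a score of 90 to 100.

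Untransfected ESCs, of which the rule used only whether a peak was there, also had lower scores at these places. The median ESC score was 269 at absent and 481 at kept peaks. In the 5 ranges of shGFP score it was 222 against 311, 246 against 365, 309 against 443, 395 against 596, and 559 against 1044. Within each range of score in the control, absent peaks thus had the lower median score in the untransfected library. Control scores still differ inside a range, and the last has no upper limit. The highest shGFP score was 772 among absent and 3193 among kept peaks. The ESC peak covered a median of 93.7% of an absent peak and 97.5% of a kept one.

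**Figure D1:**
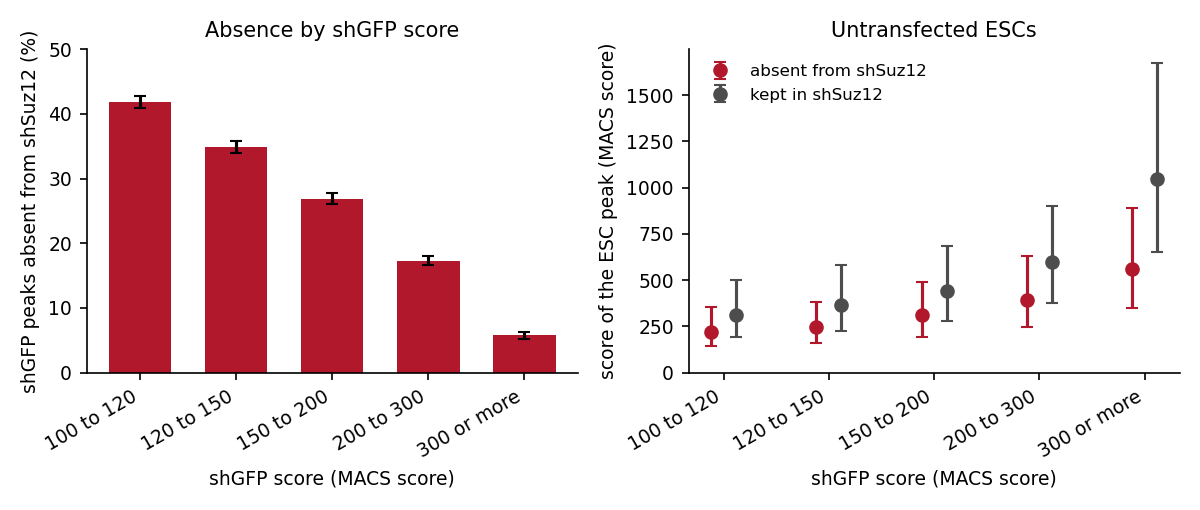
Left, the share of shGFP peaks absent from the shSuz12 list (percent, bars with exact 95% intervals) in 5 ranges of shGFP score. Right, the score of the overlapping ESC peak in the same ranges, as medians (points) and quartiles (lines), for absent and kept peaks. The absent share falls from 41.9 to 5.74%, and the median ESC score of the absent peaks lies below that of the kept peaks in each range.

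Absent did not mean far from a shSuz12 peak. The median distance from an absent peak to the nearest shSuz12 peak was 1765 bp. A shSuz12 peak lay within 100 bp of 3.76% of them, within 500 bp of 20.1%, within 1 kb of 35.2% and within 10 kb of 89.0%, and 4 touched one without sharing a base. Peaks were also missing in the other direction. Among the 54953 highest-scoring shSuz12 peaks, a number equal to that of the control, 43887 had an ESC peak, and 9411 of these (21.4%, 21.1 to 21.8%) overlapped no shGFP peak. Between the ESC libraries without the Suz12 hairpin, 8.17% of the 54953 shGFP peaks had no ESC peak, and 14.5% of the 54953 highest-scoring ESC peaks had no shGFP peak. These shares are not on the same footing as those with shSuz12, as they did not first require an ESC peak. The list searched covered 83.5 Mb for shSuz12, 121 Mb for shGFP and 179 Mb for ESCs. The lowest score taken was 100 for shGFP, 58.2 for shSuz12 and 266 for ESCs.

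To set the absent peaks beside kept peaks of like strength, each share among kept peaks was also averaged over the 5 ranges of shGFP score with the weights of the absent peaks, and is then called the share at the same scores. By their midpoints, 615 absent peaks (4.41%, 4.08 to 4.77%) lay on promoters, within 1 kb of a protein-coding TSS, 1595 (11.4%, 10.9 to 12.0%) in exons, 6240 (44.8%, 43.9 to 45.6%) in introns and 5488 (39.4%, 38.6 to 40.2%) outside protein-coding genes. By midpoint, introns thus held more of them than any other place, but where any overlap with an exon or promoter decided the place, introns held 32.8% and the space outside genes 38.0%. Kept peaks were on promoters in 4.37%, in exons in 15.0%, in introns in 46.2% and outside genes in 34.4%, and at the same scores in 3.93, 13.4, 47.4 and 35.3%. The difference from kept peaks at the same scores was 4.05 percentage points outside genes, -1.94 in exons, -2.59 in introns and 0.48 on promoters.

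The differences in place were smaller in size where the ESC score was also taken into account, and whether that score accounts for them was not tested. Where kept peaks were also weighted over 5 equal groups by ESC score, an alternative chosen after the data had been seen, the difference was 0.044 points outside genes and 0.80 points in exons, while introns were at -1.17 and promoters at 0.33 points. Differences below 1 point, as on promoters and here in exons, are too small for a direction to be read from them. Weighting over 5 groups by width left 3.89 points outside genes and -2.03 in exons, and over 5 groups by GC content 3.37 and -1.30.

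**Figure D2:**
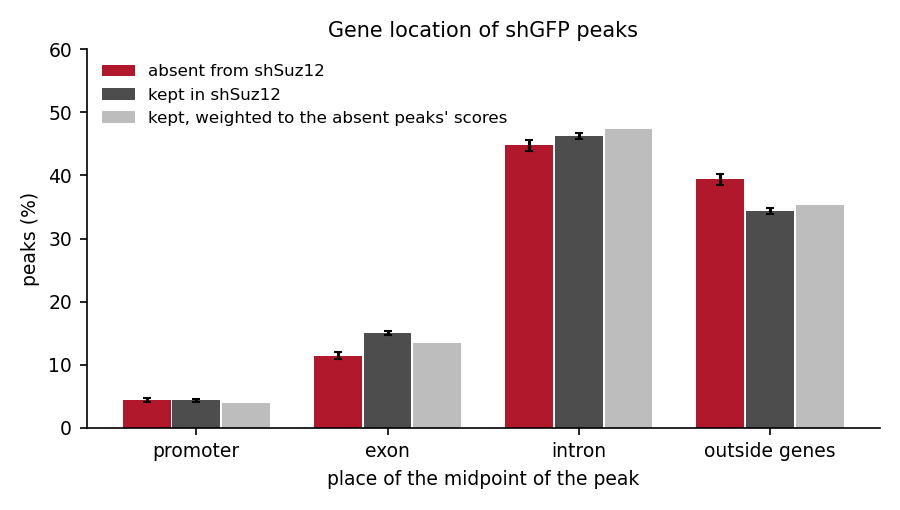
The percentage of peaks whose midpoint lies on a promoter, in an exon, in an intron or outside protein-coding genes, for absent peaks, kept peaks (bars with exact 95% intervals) and kept peaks weighted to the scores of the absent peaks. Absent peaks are at 11.4% in exons against 15.0% of the kept peaks, and at 39.4% outside genes against 34.4%.

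Of the absent peaks in exons, 1045 were in coding sequence, 7.50% of all absent peaks against 10.4% of kept peaks and 9.17% at the same scores. A further 384 were in 3' UTRs (2.76% against 2.82% at the same scores), 50 in 5' UTRs and 116 in exons without coding sequence. Along genes, the absent share was 28.7% (27.1 to 30.3%) in the first of 10 equal parts of the gene and 23.8% (22.5 to 25.1%) in the last. Only peaks inside exactly 1 protein-coding gene were used, 7953 of them absent. These shares were not set beside those at the same scores. The absent peaks outside genes lay a median of 32686.5 bp from the nearest TSS, with quartiles of 11902 and 77236 bp.

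Among the 500 bp steps around the TSS, the absent share was highest relative to the scores just upstream. The interval of that step does not allow for its choice as the highest. From 500 bp upstream to the TSS, 149 of 481 peaks were absent (31.0%, 26.9 to 35.3%), where 25.1% would be absent if each range of score kept its share over all places. In the first 500 bp downstream, 187 of 770 were absent (24.3%, 21.3 to 27.5%), against 23.6%. Within 1 kb, 30.8% (27.8 to 33.8%) of the upstream peaks and 25.6% (23.3 to 28.1%) of the downstream peaks were absent. These intervals overlap at their ends, which does not decide whether the sides differ, and no test was made. As shares of all absent peaks, the upstream and downstream sides differed from kept peaks at the same scores by 0.30 and 0.18 percentage points. The number of absent peaks was highest just downstream of the TSS, where shGFP peaks were densest.

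**Figure D3:**
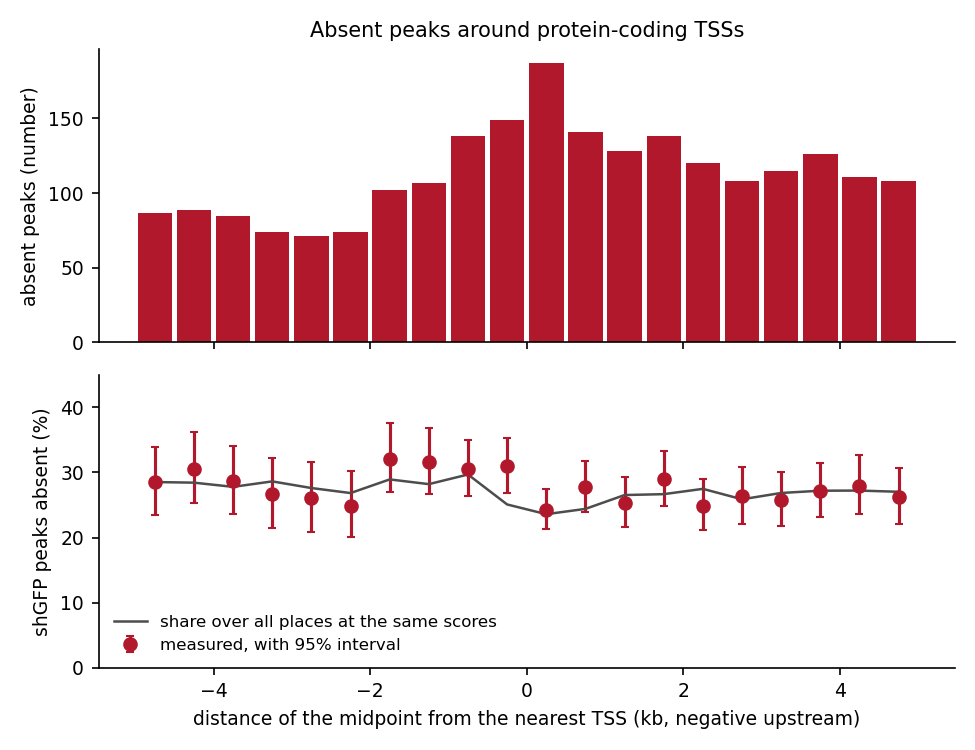
Top, the number of absent peaks in 500 bp steps of distance from the nearest protein-coding TSS (kb, upstream negative). Bottom, the percentage of shGFP peaks that were absent in each step, with exact 95% intervals, and the percentage that the scores of those peaks would give over all places (line); the step just upstream of the TSS is at 31.0% against 25.1%.

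An absent peak covered the TSS itself of 366 genes, and 1549 TSSs lay under an absent or a kept peak, so that 23.6% (21.5 to 25.8%) of them had an absent one. By promoter class, the share was 23.8% (38 of 160) for promoters of high CpG content (HCP), 22.9% (135 of 590) for intermediate (ICP) and 24.2% (193 of 799) for low (LCP), with intervals that overlap. Between 700 bp upstream and 200 bp downstream of the TSS, an HCP has a window of 500 bp with a ratio of observed to expected CpGs over 0.75 and a GC content over 55%, and an LCP has no window over 0.48.

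The 10 genes with the highest-scoring absent peak over the TSS were 5 with ICP, 4 with LCP and 1 with HCP promoters. Spaca1, which encodes a protein of the sperm acrosome, had the highest score, 580, over 810 bp, with its nearest shSuz12 peak 36415 bp away. Itpripl2, the HCP gene, followed with 478, Gm749 with 448, Tekt2, a tektin of cilia and flagella, with 441, and Il1rl2, a receptor of the interleukin 1 family, with 438. Serping1, the inhibitor of complement C1, had 403, 4933430H15Rik 403, Fam26f 386, Tef, a bZIP transcription factor, 378, and Abcg8, a sterol transporter of the liver and intestine, 371. Of these 10 peaks, 9 were also in MEFs, 6 in brain and 7 in liver. Esrrb, a nuclear receptor of the pluripotency network, had an absent peak of score 343 over its TSS, also in MEFs but not in brain or liver.

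The sequence of the absent peaks was somewhat poorer in CpG. The median was 1.81 CpGs per 100 bp against 2.02 in kept peaks, and the ratio of observed to expected CpGs 0.301 against 0.321. A CpG density above the median of all 50462 peaks was found in 40.3% (39.5 to 41.1%) of absent peaks and in 48.7% of kept peaks at the same scores. By GC content, the absent share was 40.7% (38.8 to 42.6%) of peaks with 40 to 44% GC, where their scores would give 32.4%, and 19.01% (16.1 to 22.1%) at 60% or more, where they would give 21.3%.

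Chromosome 8 differed most from the other autosomes in the absent share. It held 1143 of the absent peaks and 5682 shGFP peaks of the choice, the most of any chromosome, but 20.1% (19.1 to 21.2%) of those were absent, where their scores would give 24.5%. On the other autosomes the share ran from 25.5% on chromosome 17 to 31.8% on chromosome 3. Per Mb, chromosome 11 had 9.03 absent peaks, chromosome 8 had 8.68 and chromosome 14, the lowest autosome, 3.50. The X chromosome had 18 absent of 46 peaks and the Y chromosome 0 of 10 (0 to 30.8%). Without chromosome 8, an alternative chosen after the data had been seen, 28.6% of the peaks were absent.

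Absent peaks stood alone about as often as in runs. Taken along the chromosomes, 6940 had no absent peak as the next on either side, and there were 1933 pairs, 634 runs of 3, 194 of 4, 65 of 5 and 20 of 6 or more. Within 2 kb, the next peak was absent in 25.3% (23.6 to 27.0%) of cases after an absent peak and in 22.8% (21.9 to 23.7%) after a kept one. The longest runs had 8 absent peaks and no kept peak between them. One spanned 51787 bp of chromosome 12 at Clmn, another 183756 bp of chromosome 19 with Elovl3, Pitx3, Gbf1, Nfkb2 and Psd, and the third 464340 bp of chromosome 7 with Rnf169, Pold3, C2cd3 and 6 other genes. These runs were picked for their length and are a description.

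Counted by gene span, 4907 protein-coding genes held at least 1 absent peak, of 9649 that held any peak of the choice. With 1 kb upstream added it was 5115 of 10002 genes (51.1%). Most held few. There were 3150 genes with 1 absent peak, 1019 with 2, 353 with 3, 177 with 4, 188 with 5 to 9 and 20 with 10 or more. Over the 3739 genes with at least 3 peaks, 1 kb upstream included, the median share absent was 25%, close to the 27.6% of all peaks, with quartiles of 5.90 and 33.3%.

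The genes with the most absent peaks were long, and all but Rptor kept more peaks than they lacked. Gm20388, a predicted gene on chromosome 8 (122434741 to 126869622), came first with 114 of 742 peaks absent (15.4%), but its annotated span of 4434882 bp encloses 72 other protein-coding genes, and 60 of its absent peaks remained where each peak was counted for the shortest gene around it. Fgfr2, a receptor for fibroblast growth factors, had 29 of 109 in an annotated span of 3009069 bp (chromosome 7, 137305965 to 140315033), which encloses 31 other genes, and 12 by the shortest gene. The shortest gene was used only once these long spans had been noticed. Next came Arhgap26, a GTPase-activating protein, with 15 of 40 (11 by the shortest gene), and Fto, a demethylase of RNA, with 15 of 42.

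Fto (chromosome 8, 93837431 to 94192338) had its absent peaks in introns in 13 cases and exons in 2, none on the promoter, with scores of 104 to 366 and a median of 119. Of these, 12 were also MEF, 14 brain and 13 liver peaks. Rptor, the raptor subunit of the mTORC1 kinase complex (chromosome 11, 119464219 to 119760890), was the gene of the 10 with the largest share absent, 12 of 23 (52.2%), with scores of 107 to 234. Msi2, an RNA-binding protein of stem and progenitor cells, had 14 of 46, all in introns, and Pard3, a regulator of cell polarity, 12 of 36. Clybl, a mitochondrial enzyme, had 11 of 27, Dnahc8, a dynein heavy chain of cilia and flagella, 11 of 54 (20.4%), and Cux2, a homeodomain factor of the nervous system, 11 of 39. These last 3 were among 10 genes with 11 absent peaks and came first by the bp that the peaks covered. None of these 10 genes had a peak of the choice over its TSS, absent or kept.

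Per bp, among genes with at least 4 absent peaks in the span, short genes came first. Wfdc1 had 5 absent of 8 peaks in 21700 bp, or 23.0 per 100 kb. Arhgef19, a guanine nucleotide exchange factor, had 4 of 8, Ethe1, a mitochondrial sulfur dioxygenase, 4 of 5, and Cspg4, the NG2 proteoglycan, 4 of 9. Epha8, an ephrin receptor, had 5 of 7, Sp2, a zinc finger factor, 5 of 6, Mlxipl, a glucose-responsive factor also known as ChREBP, 5 of 6, and B4galt1, a galactosyltransferase, 5 of 8. The 5 absent peaks of Sp2 (chromosome 11, 96814654 to 96844273) had scores of 113 to 228, and all 5 were also peaks in brain and liver and 3 in MEFs. Those of Mlxipl had scores of 102 to 468, and no shSuz12 peak came nearer than 5542 bp.

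**Figure D4:**
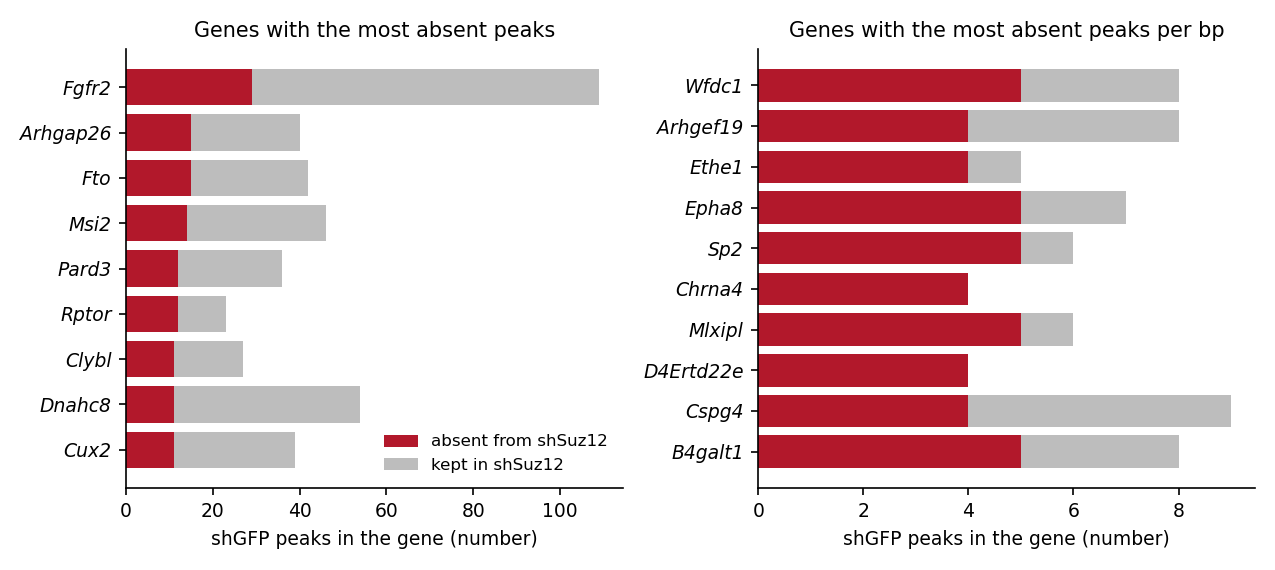
The number of shGFP peaks of the choice in each gene, absent (red) and kept (grey), for the genes with the most absent peaks (left; Gm20388, with 114 of 742, is left out for scale) and for the genes with the most absent peaks per bp (right). In the left panel only Rptor, with 12 of 23, had more absent than kept peaks, and in the right panel Chrna4 and D4Ertd22e had no kept peak.

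With 1 kb upstream included, all peaks were absent in 241 of the 5857 genes with at least 2 peaks, and in 40 of 3739 with at least 3. Cadps2, Cdc42se2, Chrna4, D4Ertd22e, Epha4, Ets1, Itpr2 and Jph4 had 4 of 4 absent each, and those outside the lists above were named after their values had been seen. Chrna4, a subunit of the nicotinic acetylcholine receptor (chromosome 2, 180753085 to 180778251), had absent peaks of scores 103, 105 and 106 along the gene and 1 of 127 over its TSS, all near the limit of 100. None of the 1398 genes with 6 or more peaks had all of them absent.

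The highest-scoring absent peaks were in genes of varied roles or outside genes. The first, of score 772 and 2732 bp, was in an exon of Sdk2, a cell adhesion protein of the immunoglobulin superfamily (chromosome 11, 113640168 to 113642899), and had an ESC peak of score 1685 and peaks in MEFs, brain and liver. The next, of score 629, lay at -48890 bp from the TSS of Polg, the mitochondrial DNA polymerase, with a peak in liver only. Snx30 followed with 585, Spaca1 with 580, and an intronic peak of Ptprn2, a receptor-type phosphatase of secretory vesicles, with 552 and no peak in the other cell types. A peak at -1666 bp from the TSS of Adm, which encodes the vasodilator peptide adrenomedullin, had 544 and was in MEFs, brain and liver. The remaining peaks of the 10 included one in an exon of Sema5b (519) and one in an intron of Espn (518). The others lay outside genes, at -87902 bp from the nearest TSS, that of Tmem189 (540), and at -60402 bp from that of Zfp644 (506). Of these 10, 7 were also in MEFs, 6 in brain and 7 in liver.

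Counting all peaks of the other lists, more than 3 in 4 absent peaks overlapped a peak of MEFs, brain or liver. MEFs had an overlapping peak for 7465 of them (53.6%, 52.7 to 54.4%), brain for 6380 (45.8%, 44.9 to 46.6%) and liver for 5538 (39.7%, 38.9 to 40.6%). All 3 had one for 2293 (16.5%, 15.8 to 17.1%), and none had one for 3214 (23.1%, 22.4 to 23.8%). Exactly 1 of the 3 had one for 31.3%, and exactly 2 for 29.2%. Among single cell types, MEFs alone accounted for 15.8%, brain alone for 8.01% and liver alone for 7.40%. Of kept peaks at the same scores, 21.7% were in all 3, 17.2% in none, 28.1% in exactly 1 and 33.0% in exactly 2. MEFs alone accounted for 14.2% of those kept peaks, brain alone for 7.75% and liver alone for 6.16%. The MEF and brain lists reach down to a score of 30 and the liver list to 80. The shares of absent peaks with a MEF, brain or liver peak are therefore not on the same footing. With a score of at least 80 in each list they were 28.5, 17.2 and 39.7%, and liver was then the highest. The shares in any, in none, in all 3 and in a single cell type are given for the full lists only. They rest on the uneven limits, so MEFs alone, brain alone and liver alone are not on the same footing either.

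The absent peaks were shared less often than kept peaks in each of these cell types. Kept peaks had a MEF peak in 63.8%, a brain peak in 57.8% and a liver peak in 47.3% of cases, and at the same scores in 60.1, 53.7 and 45.3%. The difference at the same scores was -6.56 percentage points for MEFs, -7.97 for brain and -5.57 for liver. It was seen in each of the 5 ranges of score, from 48.3 against 56.1% for MEFs at 100 to 120 to 65.7 against 74.7% at 300 or more. Here too the differences were smaller in size where the ESC score was also taken into account. Weighted over the 5 groups by ESC score as well, as in the comparison of places, the differences were -4.39, -2.28 and -1.73 points, still below 0. Whether the remainder goes with peak strength at a finer scale was not tested.

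**Figure D5:**
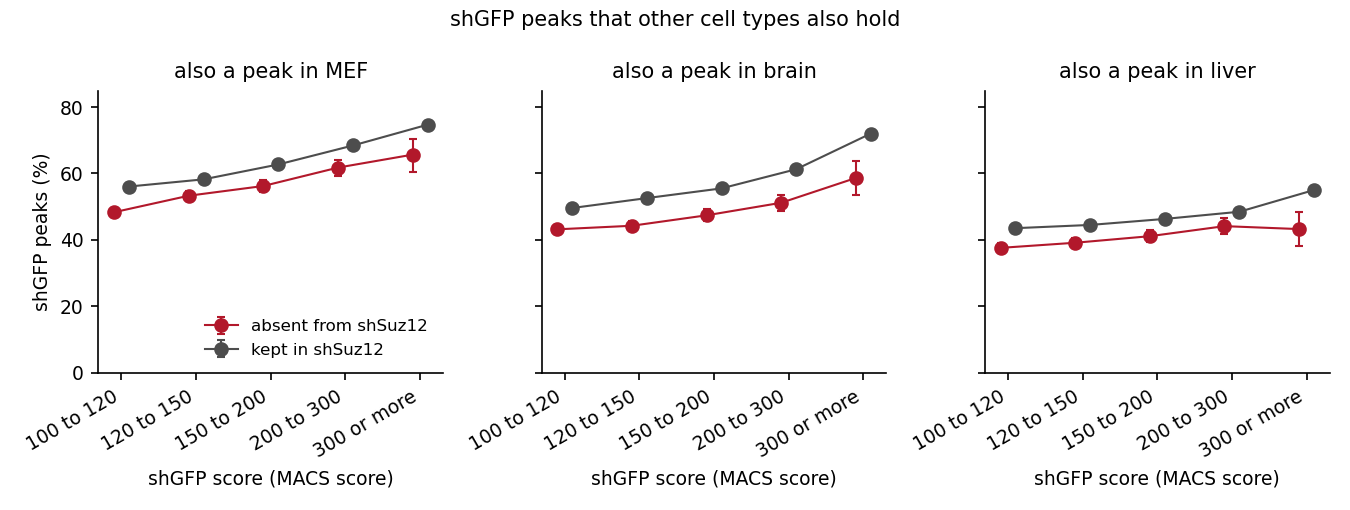
The percentage of absent and kept peaks that overlap a peak of MEFs, brain or liver, in 5 ranges of shGFP score, with exact 95% intervals. In each range and each cell type the absent peaks lie below the kept peaks, as at 300 or more, with 58.6 against 72.0% in brain.

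Among absent and kept peaks alike, the shares differed by place in the gene. MEF peaks were found for 57.5% of absent peaks in introns, 52.8% outside genes, 47.6% on promoters and 42.9% in exons. With MEF peaks of a score of at least 80, a limit added later that puts the lists on the same floor, the order was the same, with 32.8, 27.4, 19.7 and 18.7%. Brain peaks were found for 56.9% in exons, 54.1% in introns, 34.4% outside genes and 33.7% on promoters, and at that limit for 24.0, 23.6, 9.001 and 8.29%. Liver peaks were found for 53.0% in exons, 48.1% in introns, 32.5% on promoters and 27.2% outside genes. On promoters 31.1% (27.4 to 34.9%) were in none of the 3 full lists. In each of the 4 places, with all peaks of the lists, the share among kept peaks was higher for MEFs, brain and liver. For MEFs it was 67.3% in introns, 63.9% outside genes, 55.4% in exons and 54.7% on promoters. For brain it was 69.4% in exons, 65.5% in introns, 44.5% on promoters and 44.1% outside genes. For liver it was 59.7, 54.98, 38.4 and 32.8% in the same order as for brain.

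In all 7 groups of genes chosen by symbol, each gene taken with 1 kb upstream, the interval of the absent share included the 27.6% of all peaks. The developmental transcription factors, many of which are known targets of PRC2, had 110 of 398 peaks absent (27.6%, 23.3 to 32.3%), where their scores would give 23.5%, and 57 of their 102 genes with a peak had an absent one (55.9%, against 51.1% of all genes). Among their TSSs under a peak, 6 of 17 were under an absent one, against 366 of 1549 (23.6%) of all TSSs under a peak. Zfhx3, a large homeodomain factor on chromosome 8, had 10 of 66 peaks absent, Sox5 7 of 25, Ebf1, a factor of B cell and neuronal development, 6 of 18 and Pax3, of the neural crest and muscle, 4 of 7. The 4 absent peaks of Pax3 were intronic, and 1 of them was also in brain and none in MEFs or liver. Genes of Wnt, FGF, BMP, Notch and Hedgehog signalling had 81 of 291 absent (27.8%, against 26.6% from their scores). The long span of Fgfr2 gave 29 of the 81, and without it 52 of 182 were absent (28.6%, against 25.4%). Beyond Fgfr2, they included the ligand Fgf1 with 5 of 11 and an absent peak of score 116 over its TSS, the ligand Wnt5b with 4 of 9 and the Hedgehog receptor Ptch1 with 3 of 8. The 5 absent peaks of Fgf1 are also counted among the 15 of Arhgap26, whose span encloses Fgf1.

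Genes of neural adhesion and synapses had 57 of 246 absent (23.2%, 18.05 to 28.95%), where their scores would give 28.8%, with 11 of 41 in Cdh13, 7 of 20 in Cdh4, 4 of 22 in Nrxn2 and 3 of 11 in Ptprn2. The pluripotency factors had 11 of 48 absent (22.9%), 5 of 19 of them in Esrrb, 2 of 12 in Lifr, the receptor of leukemia inhibitory factor, 2 of 6 in Nr5a2 and 1 of 5 in Sall4. The housekeeping genes held 10 peaks in all, with 3 absent, 1 each in Pkm2, Polr2a and Rps3.

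Genes of the Polycomb complexes and of the 5hmC pathway itself also held absent peaks. For Polycomb it was 21 of 75 (28%, 18.2 to 39.6%, against 27.9% from their scores). The most were in Phc2, a polyhomeotic subunit of Polycomb repressive complex 1, with 6 of 9, all intronic and with scores of 114 to 224. Its relatives Phc1 and Phc3 had 3 of 4 and 2 of 2, and Kdm2b, which binds unmethylated CpG islands, had 3 of 20. Among the Tet and Dnmt genes and those of demethylation, 13 of 46 were absent (28.3%, against 30.4%). Tet1, the main 5-methylcytosine dioxygenase of ESCs, had 2 of 4 absent, with scores of 106 and 109, and Tet3 had 3 of 8. The maintenance methyltransferase Dnmt1 had 2 of 9 and the de novo enzyme Dnmt3a 2 of 7.

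Of the genes that the study named beside 5hmC, Kdr, a receptor for vascular endothelial growth factor (chromosome 5, 76328852 to 76374483), had 1 of 2 peaks absent, an intronic one of score 181 that lay 36058 bp downstream of the TSS and was also in MEFs. Cdc25a, a phosphatase of the cell cycle, had 2 peaks and neither was absent. Pou5f1, Alb and Eef1a1 held no peak of the choice.

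Wherever they lay, 309 absent peaks overlapped an annotated lincRNA gene (2.22%, against 2.38% of kept peaks at the same scores) and 19 a miRNA gene (0.136 against 0.169%). The highest of the latter, chosen after their values had been seen, had a score of 318 at Mir1224 on chromosome 16, was in an exon of a protein-coding gene and was also in brain and liver.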

How the data were processed

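5hmC was profiled by GLIB-Seq in 6 libraries, 1 per condition. Per the labels and the methods, the authors mapped reads to mm9 with Bowtie 0.12.7, keeping unique hits with up to 2 mismatches, collapsed redundant reads and called peaks in each library with MACS 1.4.1, after CASAVA 1.8. The authors deposited a list per library, with a position and a MACS score for every peak and no other normalization. The control, the threshold and the depth are not given in the sources used here, and RNA-Seq libraries were not analysed here.

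Mitochondrial peaks were left out. Genes were taken from GENCODE release M1 on NCBIM37, the assembly of mm9, with 22367 protein-coding genes. A peak was placed by its midpoint, first on promoters (TSS ± 1 kb), then in exons, introns or outside genes. A peak counted for each gene whose span its midpoint lay in, and for the gene lists, the shares per gene and the genes with all peaks absent also within 1 kb upstream. The members and the gene lists were chosen with earlier results of these data known. The genes named were the 10 with the most absent peaks in the span (ties by bp covered), the 10 with the most per bp among genes with at least 4, the 10 with the highest score over the TSS, those at the 10 highest-scoring absent peaks, up to 4 of each list and those of the study. 1 gene is not reported here. With 1 library per condition no test was made. The alternatives were other limits on score, overlap and distance, placing by overlap, all annotated genes and other promoter widths. Tools were samtools 1.23.1 and, in Python 3.11.15, pysam 0.24.0, numpy 2.4.6, scipy 1.17.1, pandas 2.3.3 and matplotlib 3.10.9. The steps were also run on simulated data with known answers.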

Additional observations from a re-analysis of the deposited data

How the results depend on the processing

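No paired analysis was possible because there is only 1 library of each kind. Most of the values below depend on where a limit was set, the cause of each shift beyond that was not tested, and the unknown depth of each library limits what an absent peak means. Of 149 alternative values, 85 stayed near the reported one (a share or difference within its counting error, a number of peaks within 1.5 times), 63 moved and 1 changed sign. With a score of at least 80 there were 21181 absent peaks (32.4%), of which 3.98% were on promoters, 45.9% in introns, and 51.4, 44.2 and 38.6% had a MEF, brain and liver peak, with a difference from kept peaks of -5.40 points for MEFs. With a score of at least 150 there were 5099 (18.6%), with 5.47% on promoters, 12.7% in exons, 42.9% in introns and 58.7, 49.4 and 42.2% shared, and differences of 1.11 points on promoters and -9.14 for brain. Leaving out members with a shSuz12 peak within 1 kb gave 9033 (17.9%), with 10.9% in exons, 42.7% in introns, 41.8% outside genes and 51.98, 43.0 and 36.5% shared. The differences were then -4.89 points in introns, 6.54 outside genes, and -7.45, -10.2 and -8.80 for MEFs, brain and liver. Taking only shSuz12 peaks at or above the lowest shGFP score gave 22997 (45.6%), with 55.96, 48.5 and 41.3% shared and -7.07 points for brain. Placing by any overlap put 6.32% on promoters, 22.8% in exons, 32.8% in introns and 38.0% outside genes, which turns their order, with -4.10 points in exons and -0.39 in introns. All annotated genes gave 6.31% on promoters, 45.7% in introns and 36.3% outside, and promoters of 500 bp or 2 kb on each side 2.41 or 7.82%. An overlap of at least 50% of the peak left 45.3, 38.4 and 35.3% shared. A score of at least 80 in the other lists left 28.5% in MEFs and 17.2% in brain, with -5.26 points for brain. The remaining alternatives were chosen after the data had been seen. Without chromosome 8 the share absent was 28.6%. At the same scores over 5 groups by ESC score the difference in exons turned to 0.80 points, and those in introns, outside genes, MEFs, brain and liver were -1.17, 0.044, -4.39, -2.28 and -1.73. At 5 groups by width they were -5.62 for MEFs and -6.52 for brain, and at those of GC content -1.30 in exons. The differences for MEFs, brain and liver stayed below 0 under each alternative tried.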
